A study of Mus musculus with 24 samples.

Results

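The leukocyte marker genes described here are 33 genes that mark white blood cells, chosen by name from a list of macrophage, dendritic, T, B and neutrophil markers and not by their values. Earlier results of these data were known when they were chosen. The list held 4 genes common to leukocytes, 15 macrophage and monocyte genes, 2 dendritic and antigen presenting genes, 7 T cell genes, 3 B cell genes and 2 neutrophil genes. They were followed in whole kidneys of young male mice by 1-colour microarray, in 6 control kidneys of genotype mgb+/+ and 18 kidneys of genotype mgb-/- sorted by degree of hydronephrosis into 7 mild, 5 moderate and 6 severe. The megabladder (mgb) line carries a mutation that leaves the bladder wall with little smooth muscle, so urine backs up into the kidney and dilates it, which is hydronephrosis. Probes were found for 32 of the 33 genes, and 31 passed the filter on dim probes, out of 27971 genes tested in all. Cd68, a lysosomal macrophage protein, was not matched to a probe here, and the probe of Cd163, a haemoglobin scavenger receptor of macrophages, was well above background on 1 of 24 arrays and was not tested.

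Resident macrophages and dendritic cells form a network between the tubules of a healthy kidney, while neutrophils, T cells and B cells are sparse there. When urine flow is blocked, monocytes drawn by chemokines enter from the blood and become macrophages that clear debris and can promote scarring, and neutrophils arrive at sites of acute damage. A marker's level in whole kidney reflects both the number of such cells and the RNA each holds, and fewer cells of a type and less RNA per cell cannot be told apart in these data. Cd14, Lyz2, Cd74 and Cd4 can also be made by cells other than leukocytes or by more than a single leukocyte class, so class names here are those of the list.

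Promoters of 6 of the genes are shown so that the common and myeloid members, whose levels are given kidney by kidney below, can be seen at the sequence that starts their transcription. All 6 hold a motif marked below, so they do not stand for the other members. Spi1, a transcription factor on which myeloid cells depend, binds purine-rich sites. Each is the stretch of 150 bases just before the RefSeq transcript start (build GRCm38.p6), 5′ to 3′ on the gene's strand, with capitals marking GAGGAAG, a core of that kind, on either strand, or the letters TATAAA of the box that positions the start of transcription. A core on the opposite strand reads CTTCCTC as printed.
Laptm5 (chr4:130913166-130913315, plus strand): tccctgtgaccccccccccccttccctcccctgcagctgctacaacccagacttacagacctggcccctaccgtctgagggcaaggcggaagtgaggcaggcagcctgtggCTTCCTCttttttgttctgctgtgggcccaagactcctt
Mrc1 (chr2:14229264-14229413, plus strand): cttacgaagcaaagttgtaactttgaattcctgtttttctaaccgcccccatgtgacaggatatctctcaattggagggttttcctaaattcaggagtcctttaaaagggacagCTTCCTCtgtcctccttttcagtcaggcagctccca
Itgam (chr7:128062490-128062639, plus strand): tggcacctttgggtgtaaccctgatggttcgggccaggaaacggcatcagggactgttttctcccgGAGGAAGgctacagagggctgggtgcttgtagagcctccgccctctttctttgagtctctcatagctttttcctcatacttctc
Fcgr1 (chr3:96293970-96294119, minus strand): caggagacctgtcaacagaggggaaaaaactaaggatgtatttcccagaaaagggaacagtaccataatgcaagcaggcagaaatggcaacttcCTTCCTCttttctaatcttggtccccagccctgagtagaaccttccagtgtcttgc
Fcgr3 (chr1:171059404-171059553, minus strand): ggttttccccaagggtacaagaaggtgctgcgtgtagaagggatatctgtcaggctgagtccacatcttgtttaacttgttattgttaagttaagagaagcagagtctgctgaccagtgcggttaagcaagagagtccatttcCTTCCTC
S100a8 (chr3:90668921-90669070, plus strand): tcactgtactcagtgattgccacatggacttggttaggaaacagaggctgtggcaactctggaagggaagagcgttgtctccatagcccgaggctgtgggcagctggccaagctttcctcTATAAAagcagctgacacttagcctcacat

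The core lay 39 bases before the start in Laptm5, 36 in Mrc1, 84 in Itgam, 56 in Fcgr1 and 7 in Fcgr3, for which the first of 2 listed starts is shown. In S100a8 the letters TATAAA lay 30 bases before the start. Counted over the full window of 250 bases before and 50 after the start, both strands included, 8 of the 23 members with a promoter entry held GAGGAAG, namely Cd53, Fcgr1, Fcgr3, Itgam, Laptm5, Lck, Mrc1 and S100a8, against 13.6% of all 32851 promoters. TATAAA was found in 4 of the 23, Laptm5, Ptprc, S100a8 and S100a9, and in 13.6% of all promoters. The 2 motifs cannot overlap each other, and a match is a run of letters and not a shown binding site.

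Levels are given as log2 of the background-corrected signal of a gene's brightest probe minus the log2 of the array's 75th percentile, so 0 is the level of a probe at that percentile and a difference of 1 is a 2-fold difference. The 75th percentile itself lay between 496 and 968 signal units, and 55.4% to 70.8% of probes were well above background. Kidney identity was clear in all groups: Lrp2 (the proximal tubule receptor megalin) and Umod (uromodulin of the thick ascending limb) averaged 7.25 and 8.24 in controls and did not pass the test in the 18 mgb-/- kidneys. Myocd, the smooth muscle coactivator whose locus the mgb mutation is known to disrupt, ranged from -4.81 to -2.29 in controls and from -4.91 to -2.32 in mgb-/- kidneys (log2 change 0.59, SE 0.33, limma adjusted p = 0.248). Its probe gave no check of the genotype labels.

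A single kidney, severe replicate 5, stood apart from the other 23. It had the highest level of all 24 kidneys for 23 of the 31 members, where the share over all genes with a value on every array was 11.6%. These 23 included 4 of 4 common leukocyte genes, 12 of 13 macrophage and monocyte genes, 2 of 2 dendritic and antigen presenting genes, 2 of 2 neutrophil genes and 3 of 7 T cell genes, but 0 of 3 B cell genes. The count rests on each gene's brightest probe. On the dimmer probes of Csf1r and Cd2 this kidney was not the highest, and on the dimmest probe of Itgam it was. Its 21 members outside the T and B cell classes had a median difference of 2.72 from the control mean, that of the 10 T and B cell genes was 0.27, and the median over all genes was -0.20. In the same kidney the mean log2 level of 12 nephron segment genes was 3.48, against 4.69 to 5.26 in the other severe kidneys, and the injury marker Lcn2 stood at 5.48 and Havcr1 at 4.16. Its 75th percentile was the highest of the 24, at 968. The part of any of these in the marker levels was not tested. Leaving this kidney out was tried for all 7 comparisons, and values without it stand beside the results below. The kidney was singled out by its values for these same members. Adjusted p-values without it therefore show how far a result depends on this kidney and are not independent tests.

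**Figure D1:**
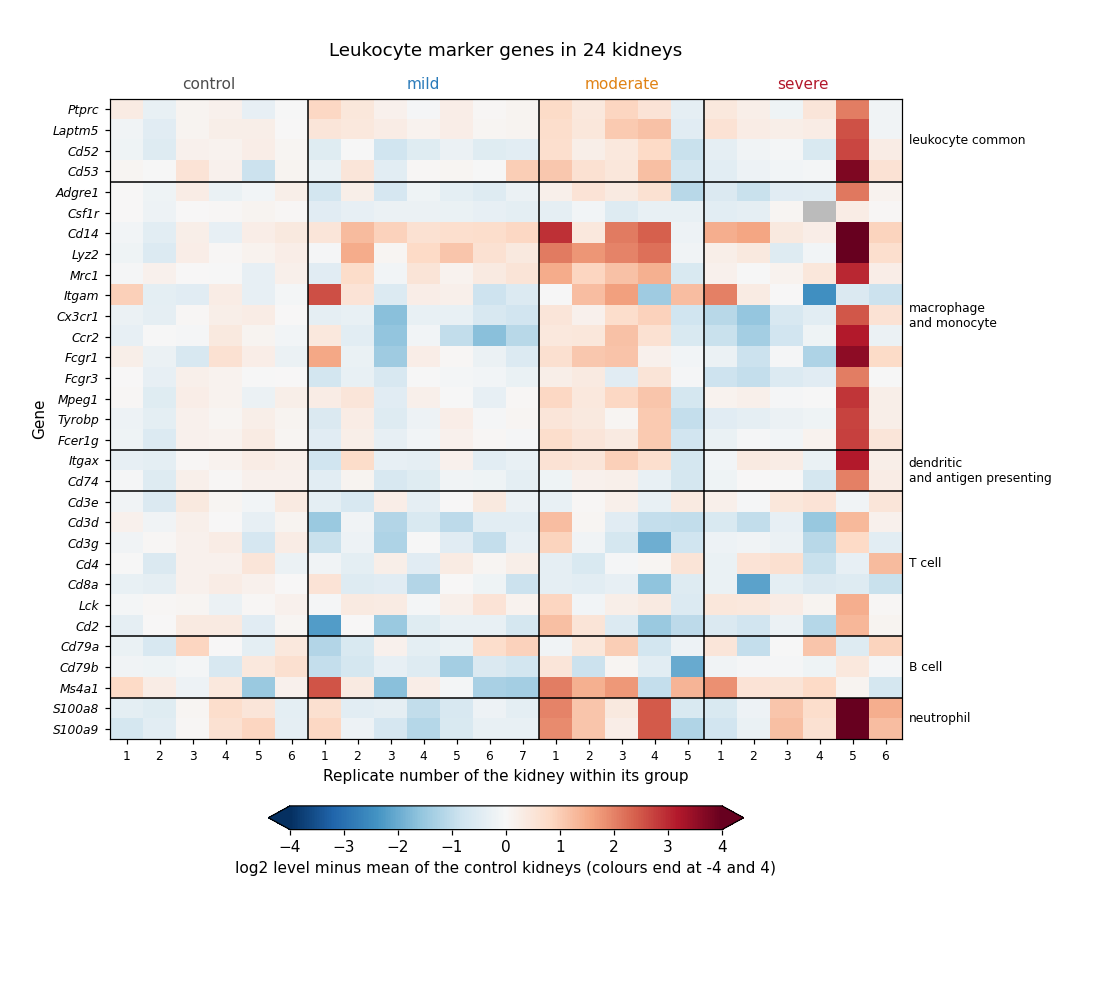
Level of each of the 31 tested leukocyte markers (rows, by cell class) in each of the 24 kidneys (columns, by group and replicate number), as log2 level minus the mean of the 6 control kidneys. Severe replicate 5 is the darkest red column from Ptprc to Cd74 and at S100a8 and S100a9, except at Csf1r and Itgam. Over most of the same rows 4 of the 5 moderate kidneys are pale red. Csf1r and Cd74 are exceptions, with moderate medians of 4.39 and 2.87 below the control means of 4.69 and 3.03. The grey cell is Csf1r in severe replicate 4, whose spot was rejected as an outlier.

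Between all 18 mgb-/- and the 6 control kidneys, 0 of 31 members passed limma's test at an adjusted p under 0.05, where 13.3% of all genes did. At an unadjusted p under 0.05 the members numbered 3 (Cd14 higher, Csf1r and Cd8a lower), against 29.0% of all genes. The median change over the 31 members was 0.11 and over all genes 0.01, with 20 members above 0 and 11 below.

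By grade, 0 of 31 members passed against the controls in mild, moderate or severe kidneys, where 6.02%, 1.20% and 16.1% of all genes passed. The counts at an unadjusted p under 0.05 were 2, 3 and 3 in these grades, against 21.4%, 18.4% and 31.8% of all genes. Between grades the adjusted counts of members were again 0, where 0.586% of genes passed between severe and mild, 0% between moderate and mild and 0.00715% between severe and moderate. At an unadjusted p under 0.05 there were 5, 1 and 0 members, against 11.1%, 6.68% and 10.4% of all genes. These comparisons share kidneys: the 3 grade comparisons use the same 6 controls.

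Levels of the members varied widely within a grade. The median SD of a member was 0.30 for controls and 0.42, 0.68 and 1.12 for mild, moderate and severe kidneys, while that of all genes was 0.27, 0.27, 0.38 and 0.48. Without severe replicate 5 the severe value for members fell to 0.38, equal to the 0.38 of all genes. For mgb-/- against control kidneys, data were also simulated for the same 27971 genes. Changes of 1 on the log2 scale were recovered in 67% of cases and changes of 2 in 94%. The changed genes were drawn at random from all genes, with independent noise, so these shares are not those of the members.

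The common leukocyte genes describe white cells of any class. Ptprc, the CD45 phosphatase found on every nucleated blood cell of this lineage, was at -2.40, -2.01 and -1.73 (lowest, median and highest) in the 6 controls. In mild kidneys it was at -2.10, -1.89 and -1.25, in the 5 moderate kidneys at -1.20 to -2.42 with a median of -1.53, and in severe kidneys at -2.24, -1.73 and -0.01. All 4 groups overlapped, and the highest kidney, severe replicate 5, lay 1.19 above the next. The severe minus control difference of Ptprc was 0.48 (SE 0.29, adjusted p = 0.257), and 0.17 without that kidney.

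Laptm5, a lysosomal protein of blood cells, Cd52, a small surface glycoprotein of lymphocytes and monocytes, and Cd53, a leukocyte tetraspanin, were also highest in that kidney. Cd53 reached -0.996 in severe replicate 5, and the next highest kidney lay 2.55 lower. Its other 5 severe kidneys ranged from -5.15 to -4.15, inside the control range of -5.59 to -4.18 but for the highest. Severe minus control, the 4 common genes had differences of 0.29 to 0.63 with all kidneys, and without severe replicate 5 their median was 0.06.

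Cd14, the coreceptor that hands bacterial lipopolysaccharide to the Toll-like receptor complex on monocytes, had the largest change of the 31 members between mgb-/- and control kidneys. The controls had -0.32, 0.18 and 0.50 as lowest, median and highest log2 levels. In mild kidneys these were 0.59, 0.80 and 1.38, so all 7 lay above all 6 controls. The 5 moderate kidneys had 3.05, 0.52, 2.19, 2.51 and -0.09 for replicates 1 to 5. In severe kidneys the values were 0.38, 1.30 and 4.42, and 6 of 6 lay above the control mean, though 1 fell inside the control range.

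The difference for Cd14 over all mgb-/- kidneys was 1.22 (SE 0.45, 2.33-fold, 95% interval 0.30 to 2.15, adjusted p = 0.0707), and 17 of 18 kidneys lay above the controls' mean. By grade it was 0.78 in mild (SE 0.52, adjusted p = 0.429) and 1.49 in severe kidneys (SE 0.54, adjusted p = 0.064), the latter 0.92 without severe replicate 5 (adjusted p = 0.144). Over all mgb-/- kidneys it missed the threshold, and passed it without severe replicate 5 (1.04, adjusted p = 0.0404) or without moderate replicate 5 (1.30, adjusted p = 0.0434). Over all 37 other settings its adjusted p ran from 0.00924 to 0.752. Within the 3 slides, each of which held 2 control and 6 mgb-/- kidneys, the difference was 1.70, 1.23 and 0.74. The 4 kidneys highest in Cd14 were severe replicate 5 and moderate replicates 1, 3 and 4, which were also the 4 highest in Lcn2, at 5.48, 6.59, 4.29 and 5.30.

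Lyz2, the lysozyme of macrophages and granulocytes, was higher in 4 of the 5 moderate kidneys than in any control. Controls had -3.12, -2.49 and -2.31, and the moderate kidneys had -0.51, -0.83, -0.61, -0.37 and -2.71. The mild kidneys, at -2.61, -1.96 and -1.09, and the severe kidneys other than replicate 5, at -3.10 to -1.90, lay on both sides of the highest control. Severe replicate 5 reached 1.71, a level 19.6-fold above the control mean.

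Moderate minus control, Lyz2 differed by 1.57 (SE 0.60, adjusted p = 0.166) and Cd14 by 1.52 (SE 0.57, adjusted p = 0.159). Both comparisons hold no severe kidney but take their spread from all 4 groups. Without severe replicate 5 the adjusted p was 0.0207 for Lyz2 and 0.0445 for Cd14, with the differences unchanged, and 3.88% of all genes passed in that fit. Moderate replicate 5 was the lowest moderate kidney for both genes.

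**Figure D2:**
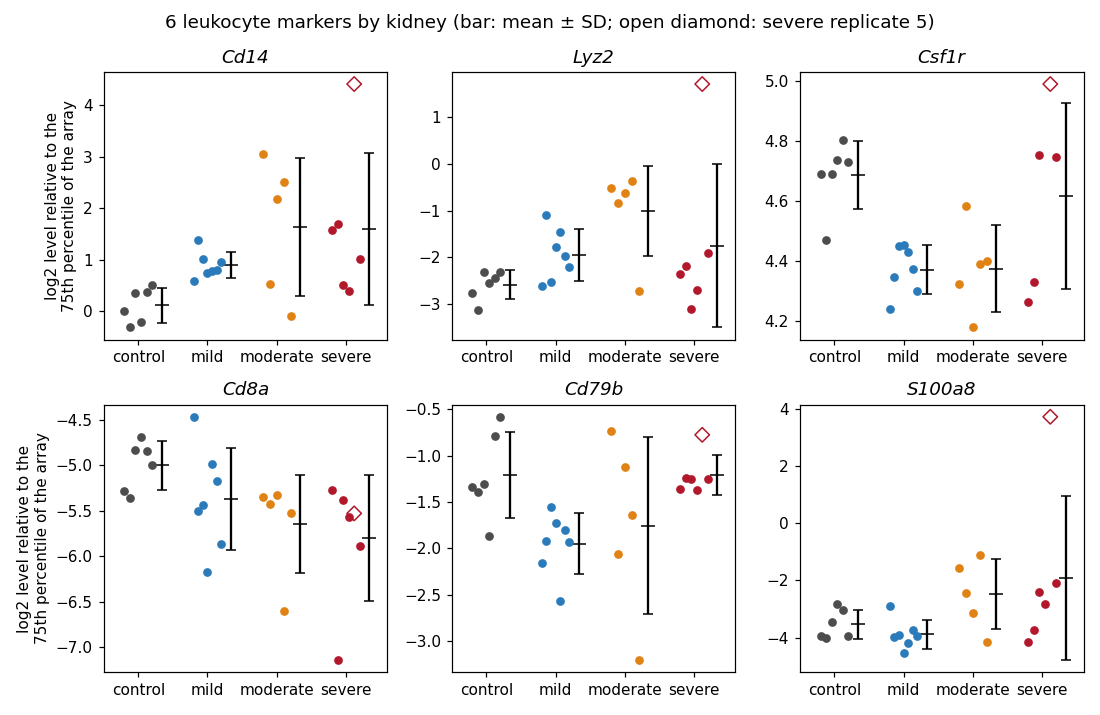
Level of 6 leukocyte markers in each kidney by group, as log2 level relative to the array's 75th percentile, with the mean ± SD of the group beside the points (n = 6, 7, 5 and 6, and 5 severe kidneys for Csf1r). Mild kidneys lie above all controls for Cd14 and below all controls for Csf1r, and severe replicate 5, the open diamond, is the highest kidney for Cd14, Lyz2, Csf1r and S100a8.

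Mrc1, the mannose receptor of tissue macrophages, was also lowest in replicate 5 among moderate kidneys. Its values there were 0.34, -0.25, 0.04, 0.30 and -1.75, where the highest control was -0.93. The moderate minus control difference was 0.86 (SE 0.43, adjusted p = 0.288). Mpeg1, the pore-forming perforin-2 of macrophages, was above 0.70, the highest control, in moderate replicates 1 to 4 and in 2 of 7 mild kidneys, with a difference of 0.50 between moderate and control means (SE 0.40, adjusted p = 0.529).

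Csf1r, the receptor for the growth factor that keeps macrophages alive, went the other way. Its controls had 4.47, 4.71 and 4.80, and the 7 mild kidneys had 4.24, 4.37 and 4.45, so mild and control kidneys did not overlap. The moderate kidneys ran from 4.18 to 4.58, and the 5 severe kidneys with a value from 4.26 to 4.99; the spot of severe replicate 4 was dropped as an outlier. Mild minus control was -0.32 (SE 0.11, adjusted p = 0.0816) and all mgb-/- minus control was -0.24 (SE 0.10, adjusted p = 0.102). Without severe replicate 5 both passed, at adjusted p = 0.0396 and 0.0262.

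The 3 Csf1r probes did not give equal sizes. Mild minus control was -0.32 by the brightest probe, -0.44 by the second and -0.16 by the third, and mild and control kidneys did not overlap on the first and second. Over all mgb-/- kidneys the 3 probes gave -0.24, -0.59 and -0.08. Their mean levels over all kidneys were 4.51, 0.31 and -0.34. In severe replicate 5 they differed from the control mean by 0.30, 0.05 and -0.01. The median of the 21 members outside the T and B cell classes was 2.72 there. Whether the Csf1r probes follow macrophage content was not tested.

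Of the 31 members, 2 had no overlap between mild and control kidneys, Cd14 and Csf1r, where 9.05% of all genes had none. Between all mgb-/- and control kidneys it was 0 of 31, where 0.832% of all genes had none. Between severe and mild kidneys it was 1 of 31, Cd79b, against 0.883%.

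No Fc receptor or signalling chain among the members passed in any comparison. Tyrobp and Fcer1g are adaptor chains that pass on signals from many activating receptors of myeloid cells, and Fcgr1 and Fcgr3 bind the constant part of antibodies. Tyrobp had 0.66, 1.13 and 1.27 in controls and 0.57 to 1.27 in severe kidneys other than replicate 5, which stood at 3.73. Fcer1g had 0.11 to 0.99 in controls, 0.39 to 1.13 in those 5 severe kidneys and 3.38 in replicate 5. Fcgr3 was at -1.76 to -0.82 in the 5 severe kidneys against -1.14 to -0.62 in controls, and at 1.25 in replicate 5.

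Severe minus control was -0.12 for Fcgr3 with all kidneys (SE 0.34, adjusted p = 0.843) and -0.56 without replicate 5 (adjusted p = 0.0532). Fcgr1, dim at a control mean of -4.29, was well above background in 4 of 6 severe kidneys and reached -0.71 in replicate 5, 12.0-fold above the control mean.

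Cx3cr1 and Ccr2 are chemokine receptors that mark resident or patrolling cells and newly recruited monocytes. Cx3cr1 had -0.39, -0.01 and 0.25 in controls, and 7 of 7 mild kidneys lay below the control mean, at -1.70 to -0.33. Severe kidneys ran from -1.60 to 0.53 and then to 2.43 in replicate 5. For Ccr2 the controls ran from -3.08 to -2.36, the 5 severe kidneys from -4.11 to -2.93, and replicate 5 was at 0.42.

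Mild minus control was -0.61 for Cx3cr1 (SE 0.45, adjusted p = 0.483) and -0.78 for Ccr2 (SE 0.52, adjusted p = 0.426). Severe minus control was -0.11 for Cx3cr1 and -0.04 for Ccr2, and without replicate 5 it was -0.63 and -0.68 (adjusted p = 0.21 and 0.188). Neither gene passed in any of these fits.

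Adgre1, a surface antigen by which mouse macrophages are stained, ran from -2.35 to -1.79 in controls, from -2.98 to -1.93 in the 5 severe kidneys and stood at 0.03 in replicate 5. Moderate replicate 5 was its lowest kidney at -3.18. Itgam, the integrin alpha chain CD11b, was read differently by its probes. Severe replicate 5 was 0.58 below the control mean on the brightest Itgam probe, 0.41 below on the second and 2.52 above on the third, where it was the highest of 24 kidneys. The severe minus mild difference of group means was -0.50, 0.34 and 0.72 on these probes, so no direction is given for Itgam.

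Itgax, the CD11c integrin chain of dendritic cells, and Cd74, the invariant chain of MHC class II, were also set by that kidney. Itgax had -3.76, -3.27 and -3.06 in controls, -3.63 to -3.02 in the 5 severe kidneys and -0.20 in replicate 5. Cd74 had 2.50 to 3.22 in controls, 2.32 to 3.33 in the 5 severe kidneys and 5.04 in replicate 5. Severe minus control went from 0.61 to 0.10 for Itgax and from 0.24 to -0.11 for Cd74 when replicate 5 was left out, and neither gene passed with it or without it.

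S100a8 and S100a9 are the paired calcium-binding proteins that fill the cytoplasm of neutrophils. S100a8 had -4.02, -3.70 and -2.84 in controls and -4.53, -3.93 and -2.90 in mild kidneys. The moderate kidneys had -1.56, -2.44, -3.15, -1.10 and -4.16. In severe kidneys it was at -4.14, -3.75, -2.42, -2.83 and -2.10 for replicates 1, 2, 3, 4 and 6, and at 3.71 in replicate 5.

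That last level was 152-fold above the control mean, and for S100a9, at 5.54, it was 109-fold. Severe minus mild was 1.96 for S100a8 (SE 0.84, 95% interval 0.21 to 3.70, adjusted p = 0.391) and 1.80 for S100a9 (SE 0.83, adjusted p = 0.435). Without replicate 5 these were 0.83 and 0.74 (adjusted p = 0.60 and 0.669). Moderate minus control was 1.06 for S100a8 (SE 0.92, adjusted p = 0.568) and 0.90 for S100a9 (SE 0.91, adjusted p = 0.637).

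**Figure D3:**
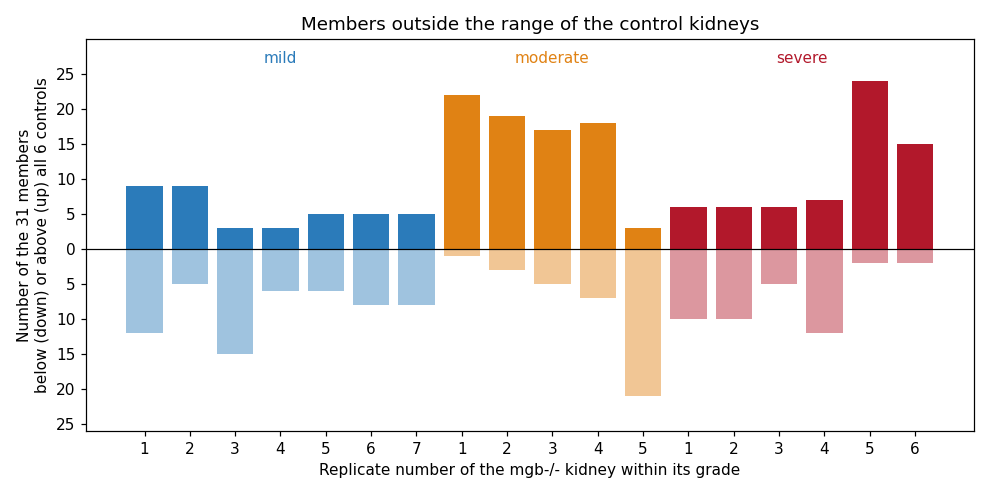
Number of the 31 tested members whose level in a kidney was above all 6 control kidneys (upward bars) or below all 6 (downward bars), for each of the 18 mgb-/- kidneys by grade. Moderate replicates 1 to 4 have 17 to 22 members above, severe replicate 5 has 24, and moderate replicate 5 has 21 below, where 16.0% to 33.9% of all genes lie above in the former, 23.1% above in severe replicate 5 and 15.5% below in moderate replicate 5.

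Kidney by kidney, moderate replicates 1 to 4 had 17 to 22 of the 31 members above all 6 controls and 1 to 7 below, while moderate replicate 5 had 3 above and 21 below. Of all genes, 16.0% to 33.9% lay above all controls in moderate replicates 1 to 4 and 17.5% to 30.4% below, and in moderate replicate 5 the shares were 23.1% and 15.5%. Severe replicate 5 had 24 above and 2 below, and the other 5 severe kidneys had 6 to 15 above and 2 to 12 below. For all genes the shares were 23.1% above and 37.2% below in severe replicate 5, and 14.9% to 38.9% above and 16.7% to 30.1% below in the other 5. Mild kidneys had 3 to 9 members above and 5 to 15 below, where 13.8% to 28.3% of all genes lay above and 18.3% to 25.9% below. Moderate minus mild was above 0 for 21 of 21 members outside the T and B cell classes, with a median of 0.48 where all genes had -0.02, but 0 of them passed limma's test and 1 was under an unadjusted p of 0.05. Severe minus mild was above 0 for 20 of those 21 with all kidneys and for 10 without severe replicate 5.

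The T cell genes were lower in mild than in control kidneys in 6 of 7 cases, and none passed. Cd3d, a chain of the T cell receptor complex, had -3.97, -3.56 and -3.43 in controls and -5.10, -4.23 and -3.76 in mild kidneys, 7 of 7 below the control mean. Its moderate kidneys spread from -4.62 to -2.38 and its severe kidneys from -5.14 to -2.33. Mild minus control was -0.75 (SE 0.38, adjusted p = 0.258). Cd3g, another chain of that complex and well above background on 21 of 24 arrays, had -0.58 (SE 0.34, adjusted p = 0.346) and Cd2, an adhesion receptor of T cells, had -0.79 (SE 0.43, adjusted p = 0.306).

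Cd3e, the third chain measured, differed in mild kidneys by -0.14 (SE 0.19), and Cd4, the helper T cell coreceptor, by -0.02 (SE 0.27). The Cd3e probe averaged -0.32 over all kidneys, far brighter than Cd3d at -3.97 and Cd3g at -4.76. The Cd4 probe averaged 0.18, and a second Cd4 probe averaged -4.67 with a mild difference of -0.07. Whether the bright probes read T cells was not tested. Cd8a, the coreceptor of cytotoxic T cells, was dim, and well above background in 21 of 24 kidneys. By group these were 6 of 6 control, 6 of 7 mild, 5 of 5 moderate and 4 of 6 severe kidneys. Cd8a had -5.36, -4.92 and -4.69 in controls, -6.17, -5.44 and -4.47 in mild, -6.60 to -5.32 in moderate, and -7.14, -5.55 and -5.27 in severe kidneys. All 6 severe and all 5 moderate kidneys lay below the control mean.

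Severe minus control for Cd8a was -0.79 (SE 0.30, adjusted p = 0.0745), or -0.85 without replicate 5 (adjusted p = 0.0863), and all mgb-/- minus control was -0.59 (SE 0.25, adjusted p = 0.114). It passed in 5 of the 37 other settings for severe and in 4 of 36 for all mgb-/- kidneys, among them quantile normalization. Within the 3 slides the mgb-/- minus control difference was -0.94, -0.29 and -0.53. The second Cd8a probe gave -0.57 but was well above background on 7 arrays. Severe minus mild was -0.42 on the probe used and 0.16 on the second. Lck, the kinase that starts T cell receptor signalling, differed by 0.46 in severe kidneys (SE 0.21, adjusted p = 0.137), with 6 of 6 above the control mean, and by 0.27 without replicate 5.

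Among B cell genes, Cd79b, a signalling chain of the B cell receptor, had -1.86, -1.32 and -0.58 in controls and -2.57, -1.92 and -1.55 in mild kidneys, 7 of 7 below the control mean. The severe kidneys were narrow, at -1.37 to -1.24 with replicate 5 at -0.77, and all 6 lay above all 7 mild kidneys. Mild minus control was -0.74 (SE 0.29, adjusted p = 0.126) and severe minus mild was 0.74 (SE 0.29, adjusted p = 0.336), or 0.66 without replicate 5 (adjusted p = 0.568). Its partner chain Cd79a was well above background on 11 of 24 arrays and Ms4a1, the CD20 antigen, on 18, so their differences from control, -0.09 and -0.19 in mild kidneys, rest on dim spots.

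**Figure D4:**
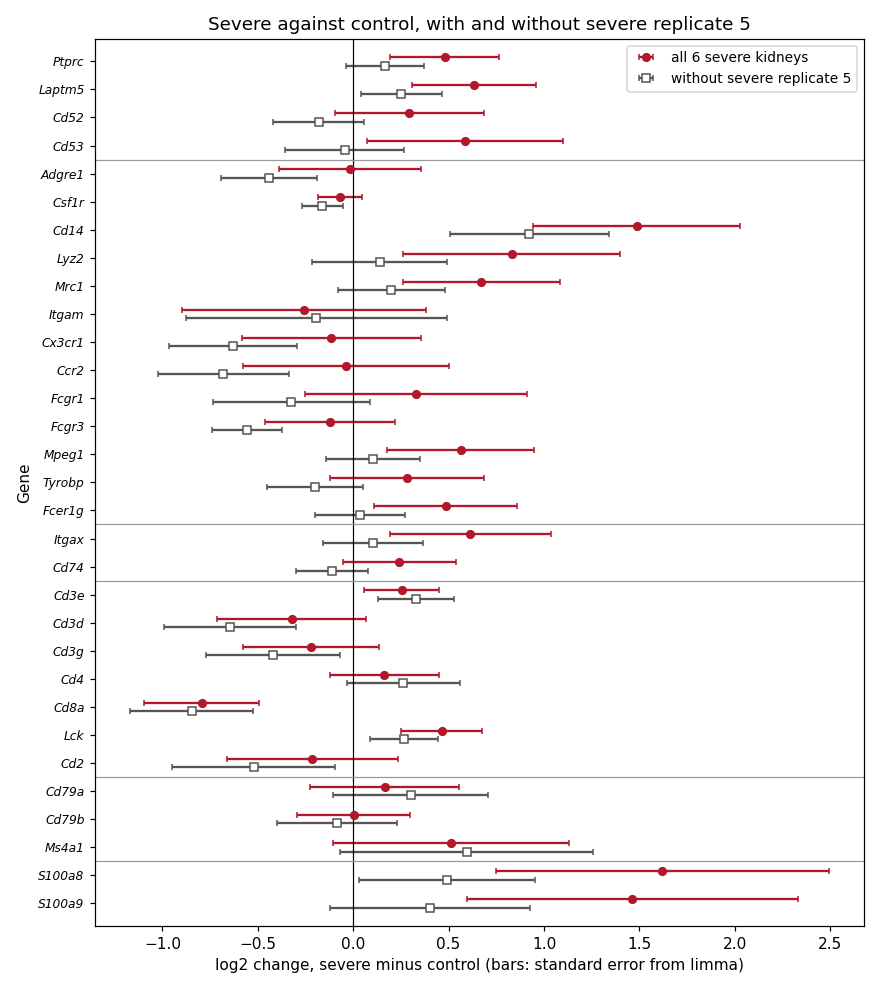
Severe minus control difference of each of the 31 members on the log2 scale with its standard error, from all 6 severe kidneys (filled circles) and without severe replicate 5 (open squares). Of the 21 members outside the T and B cell classes 15 are right of 0 with all kidneys, and 10 are without that kidney.

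Without severe replicate 5 the fit of all mgb-/- against control kidneys called 2 members, Cd14 higher and Csf1r lower, where 15.2% of all genes passed. In mild kidneys it called 1 (Csf1r, 8.80% of all genes), in moderate kidneys 2 (Cd14 and Lyz2) and in severe kidneys 0, where 11.1% of all genes passed. The median severe minus control difference over the 31 members went from 0.28 to -0.04, and 10 of 31 severe minus mild differences changed sign. By limma, none of the 31 members was called higher in severe than in control kidneys, with that kidney or without it. With all kidneys, 2 members above control and 1 below had limma p-values under 0.05 before adjustment, against 31.8% of all genes.

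Lists of related genes outside the 33 were read the same way. Beside their counts stand the shares of all genes that passed, 13.3% in all mgb-/- and 16.1% in severe kidneys against control. Of 20 phagocyte genes tested, 2 passed higher and 1 lower in mgb-/- against control kidneys. Trem2, a lipid-sensing receptor that pairs with Tyrobp, had -2.92, -2.82 and -2.64 in controls and -2.80, -1.54 and 1.86 in mgb-/- kidneys, and rose by 1.45 (SE 0.43, adjusted p = 0.0269), with 17 of 18 above the controls' mean. Cd86, a costimulatory ligand for T cells, rose by 0.92 (SE 0.26, adjusted p = 0.0232), above the control mean in 16 of 18. Fcgr2b, the inhibitory Fc receptor of macrophages and B cells, fell by 0.60 on the log2 scale (SE 0.17, adjusted p = 0.0221), below the control mean in 16 of 18. Without severe replicate 5 all 3 also passed.

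Of 12 T and NK cell genes outside the members, 1 passed between all mgb-/- and control kidneys, Gzma, a granule protease of NK cells and cytotoxic T cells. It had -1.56, -1.40 and -1.02 in controls and -3.89, -3.01 and -2.09 in mgb-/- kidneys, with no overlap, and fell by 1.64 on the log2 scale (SE 0.24, adjusted p = 0.000291). Each grade passed too, with changes of -1.78 (mild), -1.59 (moderate) and -1.53 (severe, -1.62 without replicate 5). In severe kidneys Cd28, the T cell receptor for Cd86, passed as well (0.76, SE 0.25, adjusted p = 0.0427), though not without replicate 5 (0.74, adjusted p = 0.074). Of 11 recruitment and growth factor genes, 1 passed in the same comparison, Cxcl1, a chemokine that draws neutrophils, at -4.70, -3.66 and -3.17 in controls and -2.31, -0.84 and 2.71 in mgb-/- kidneys. It rose by 3.31 (SE 0.61, 9.90-fold, adjusted p = 0.00203), with 18 of 18 kidneys above all controls, while both neutrophil members were above their control mean in 9 of 18.

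In mgb-/- against control kidneys, 0 genes passed limma's test among 11 dendritic cell and MHC class II genes, 8 B and plasma cell genes, 9 granulocyte genes and 2 mast cell genes. At an unadjusted p under 0.05 there were 1, 2, 3 and 0, against 29.0% of all genes. A B and plasma cell gene, Mzb1, passed once severe replicate 5 was left out, named after its values were seen (0.65, adjusted p = 0.00479, against 0.56 and 0.0785 with it). In severe against control kidneys 3 of the 9 granulocyte genes passed, where 16.1% of all genes did. They are named here after their values were seen: Mpo, a granule peroxidase, at 1.33 (SE 0.38, adjusted p = 0.0226), Retnlg at 2.66 (SE 0.91, adjusted p = 0.0487), and Elane, a granule protease, at -0.84 (SE 0.28, adjusted p = 0.0471). Without severe replicate 5 none of the 3 passed (adjusted p = 0.056, 0.0735 and 0.0807). Other cell types moved with the grades too. Of 6 urothelial genes, 2 passed in all mgb-/- kidneys, Krt19 at 2.34 (SE 0.64, adjusted p = 0.019) and Upk1b at 2.09 (SE 0.69, adjusted p = 0.0451), and 6 passed in severe against control kidneys and 5 in severe against mild. Those with the lowest adjusted p in severe against mild were Upk2 at 3.15, Upk1a at 2.80 and Upk1b at 3.11. The counts were 1 (Krt19), 6 and 4 without severe replicate 5. The mean level of the 6 ran from -0.60 to 1.13 in controls, -0.56 to 2.91 in mild, then 0.72 to 3.12 (moderate) and 3.00 to 4.85 (severe).

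Of 8 fibroblast and smooth muscle genes, Tagln and Acta2 passed, at 1.28 (SE 0.30, adjusted p = 0.00842) and 1.20 (SE 0.34, adjusted p = 0.0223), and Vim only without severe replicate 5 (0.49, adjusted p = 0.0438). Of 8 erythroid and platelet genes Alas2, which starts haem synthesis in red cell precursors, passed at 1.14 (SE 0.32, adjusted p = 0.0222), joined without severe replicate 5 by Hba-a1 and Hba-a2 (adjusted p = 0.0458 and 0.047), and the list's mean level ran from 2.81 to 4.80 in controls and from 3.73 to 5.18 in mgb-/- kidneys. The part of blood left in the kidneys in the leukocyte values was not tested. Of 12 nephron genes Aqp2, the collecting duct water channel, passed at 0.91 (SE 0.25, adjusted p = 0.0194), and Slc22a6 only without severe replicate 5 (-0.80, adjusted p = 0.021). The injury markers Lcn2 and Havcr1 did not pass, at 2.17 (SE 0.99, adjusted p = 0.147) and 1.66 (SE 0.87, adjusted p = 0.208).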

How the data were processed

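Total RNA of 24 whole kidneys was labelled with Cy3 and hybridised to Agilent arrays, and the authors deposited the intensity of each spot from Agilent Feature Extraction 10.10, per the labels, with background corrected by that software, and a table of normalized intensity values whose method is not given in the sources used here. Its column medians lay at 75 to 77, so arrays were on a common linear scale and not centred. Outlier spots (102 to 660 an array) were dropped and no spot was saturated. The processed intensity was taken to log2 minus the array's 75th percentile. A probe was kept if at least 5 arrays showed it well above background (38848 of 55681), and 26756 probes were named through RefSeq accessions, the rest keeping their array accession. A gene's brightest probe stood for it. limma 3.58.1 in R 4.3.3 was fitted to 2 groups (mgb-/- and control) or to 4 groups (grades), with Benjamini-Hochberg adjustment over 27971 genes and calls at an adjusted p under 0.05. Fits with other scalings, filters, blocks and without each kidney were run. Slides numbered 3, with 8 arrays apiece (2 of control and 6 of mgb-/- kidneys), and the scan time was the same split. Array number limits the precision. The labels do not say whether kidneys of 1 mouse were both used, so p-values measure the spread between these samples. The main fit of mgb-/- against control kidneys was tested on simulated data, and its alternatives were not. The members and lists were chosen with earlier results of these data known; genes outside the members are named where called (up to 3 of a list by adjusted p in mgb-/- against control and in severe against mild), beside Lcn2, Havcr1, Myocd, Lrp2, Umod and Aqp2; another kidney marker of that rule is not reported here.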

Additional observations from a re-analysis of the deposited data

Results flagged for a closer look

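A kidney was singled out where it was the highest or lowest of its group and its gap to the nearest kidney was too large a share of the group's range by Dixon's test. Of 124 sets (31 members in 4 groups), 30 were singled out in this way. The nominal rate of about 1 in 20 holds for independent sets. These sets share kidneys, and no share over all genes is given, so the count was not set against chance. Severe replicate 5 accounted for 19 of the 30, always as the highest severe kidney. Its log2 levels were -0.0122 for Ptprc, 0.56 for Laptm5, 3.18 for Cd52, -0.996 for Cd53, 0.0257 for Adgre1, 4.42 for Cd14, 1.71 for Lyz2, 1.90 for Mrc1, 0.42 for Ccr2, 1.25 for Fcgr3, 3.28 for Mpeg1, 3.73 for Tyrobp, 3.38 for Fcer1g, -0.20 for Itgax, 5.04 for Cd74, 0.45 for Lck, -0.77 for Cd79b, 3.71 for S100a8 and 5.54 for S100a9. The nearest severe kidney lay between -4.15 (Cd53) and 3.33 (Cd74) on the same scale.

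The other 11 were spread over 6 kidneys. Moderate replicate 5 was the lowest of its group for Adgre1 (-3.18), Lyz2 (-2.71), Mrc1 (-1.75) and Itgax (-4.07). Control replicate 2 was the lowest of its group for Csf1r (4.47) and Cd74 (2.50). Mild replicate 1 was the highest of its group for Itgam (5.85). Mild replicate 3 was the lowest of its group for Cx3cr1 (-1.70). Moderate replicate 4 was the lowest of its group for Cd8a (-6.60) and Ms4a1 (-5.65). Severe replicate 2 was the lowest of its group for Cd8a (-7.14).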

How the results depend on the processing

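The number of members called was 0 in all 7 comparisons as reported, and for severe against mild, moderate against mild and severe against moderate it was 0 under every alternative run. Under the others the calls were few. With quantile normalization, with each array scaled by its median and with the authors' table, 1 member (Cd8a, lower) was called in all mgb-/- and 1 in severe kidneys, and the authors' table called it in moderate kidneys as well (1). Slide as a block called 1 member in severe kidneys (Cd8a), and a filter on all arrays called 1 there (Cd14). Slide 1 alone called 2 in moderate kidneys (Cd14 and Lyz2). Array quality weights called the most, 5 in all mgb-/- (Cd14 higher, Cd3d, Cd3g, Cd8a and Csf1r lower), 5 in mild (Ccr2, Cd3d, Cd3g, Cd79b and Csf1r lower), 4 in moderate (Cd14, Lyz2 and Mrc1 higher, Csf1r lower) and 2 in severe kidneys (Cd8a and Fcgr3 lower), where they called 30.2%, 26.2%, 11.4% and 26.3% of all genes. Fitted without the other grades, mild against control called 4 (Cd14 higher, Cd3d, Cd79b and Csf1r lower) and 19.9% of all genes. At an adjusted p under 0.1 there were 1, 1 and 2 in all mgb-/-, mild and severe kidneys. The causes of these differences were not tested.

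Leaving out a kidney gave 0 to 2 calls in all mgb-/-, 0 to 1 in mild, 0 to 2 in moderate and 0 to 1 in severe kidneys against control. Beyond severe replicate 5, described above, leaving out moderate replicate 5 called Cd14 in all mgb-/- and in severe kidneys and Cd79b in mild kidneys, and leaving out severe replicate 3, 4 or 6 called Cd14 in severe kidneys. Replicate numbers did not pair the kidneys: of 33 same-numbered pairs, 10 had a correlation of deviations over 0.1 and 6 of 24 kidneys correlated best with their own number. The fit with the replicate block called 0 members in all 7 comparisons. The change of a member kept its side of the threshold in all but 11 of 1139 values for all mgb-/- and in all of 1170 for severe against mild, and its sign in all but 61 and 43. Scaling by the array median moved the median of all genes to -0.15 in mgb-/- against control, with the members at -0.04. The block on scan date was not run, since it equals the slide. Signal over background limits the dimmest members, Cd79a, Ms4a1, Cd53, Cd3g, Cd8a and Fcgr1, which were well above background on 11 to 21 of 24 arrays.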
